A study of Mus musculus with 5 samples.

Results

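Lysyl oxidases, elastin and the microfibril and fibulin genes that accompany elastin were examined in hearts of calcineurin transgenic mice given vehicle or JIB-04. The set was fixed by name and held 10 genes of the 19061 in each file: Lox, Loxl1, Loxl2, Loxl3, Eln, Fbn1, Mfap4, Mfap5, Fbln1 and Fbln2. All 10 had reads in every library and passed the filter on low values, so none was lost before testing.

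Lysyl oxidases are secreted, copper-dependent enzymes that oxidise lysine side chains of collagen and elastin, after which the chains join into insoluble cross-links. Elastin is laid down on a scaffold of microfibrils, whose backbone is fibrillin and which carry microfibril-associated proteins and fibulins. In the heart these proteins are made mainly by fibroblasts, vascular smooth muscle and valve cells, and cross-linking of the matrix is known to contribute to the stiffness of the hypertrophic ventricle.

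All animals were C57BL/6 mice labelled calcineurin transgenic, and the series' design text names the line MHC-CnATg, known as a calcineurin A transgene driven by the cardiac alpha myosin heavy chain promoter, so that the transgene acts in cardiomyocytes and both groups carried it. The vehicle group had 2 libraries and the JIB-04 group 3, each from heart at postnatal day 158. JIB-04, a compound that inhibits histone demethylases of the Jumonji family, was given at 50 mg/kg with 3 doses a week from 4 weeks of age. The labels do not say what the vehicle was, nor the sex of the animals, and no untreated or nontransgenic heart was analysed here. Nothing in the labels states that each library came from its own animal, so the p-values measure the spread between these libraries, which may be partly technical.

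Depth was 32152168 to 37002846 recovered reads per library. The cardiomyocyte genes were high in every library, with 57030 to 75044 CPM summed over 7 markers. Ppp3ca, the gene of calcineurin A, was at 6082 and 8022 CPM in the vehicle libraries and ranged over 7275, 4341 and 5421 CPM in JIB-04 replicates 1, 2 and 3, and the title of the third of these spells the transgene abbreviation with a different letter. Values below are the deposited CPM, reads scaled to library size with the authors' normalisation. A log2 fold change is JIB-04 minus vehicle on the log2(CPM + 1) scale with the standard error (SE) of limma, and adjusted p-values are corrected over all 14414 genes tested. Because the samples are bulk tissue, fewer cells of a type and less RNA per cell cannot be told apart.

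None of the 10 genes passed limma's threshold of an adjusted p of 0.05 in either direction, and neither did any gene of the whole table (0% higher and 0% lower). With no adjustment, 1 of the 10 had a p under 0.05 and a higher mean with JIB-04, where 3.93% of all genes were, and 0 were lower, where 2.51% were. edgeR and limma-voom on the recovered reads also called 0 genes of the whole table. DESeq2 called 0 of the 10, where it called 0.481% of all genes higher and 0.113% lower. Of the 10 log2 fold changes 9 were positive, against 46.9% of all genes, and their median was 0.21 against -0.0092 for all genes. The groups did not overlap for 1 of the 10, Fbln1, whose 3 JIB-04 values all exceeded the vehicle ones, a pattern seen in 10.7% of all genes, and 0 of the 10 had every JIB-04 library below, against 12%.

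The libraries of the JIB-04 group differed more from each other than the group means did. JIB-04 replicate 2 was the highest of the 5 libraries for 9 of the 10 genes, where 24.2% of all genes peaked there, and Fbln1 peaked in replicate 3. JIB-04 replicate 1 lay below both vehicle libraries for 7 of the 10 genes, against 34.6% of all genes, between them for Loxl1 and Fbn1, and above both for Fbln1. Relative to the vehicle mean, the median of the 10 genes was -0.23 in JIB-04 replicate 1, 0.53 in replicate 2 and 0.25 in replicate 3 on the log2 scale. Within vehicle, replicate 1 exceeded replicate 2 for 10 of 10 genes, against 47% of all genes, with medians of 0.11 and -0.11. The members share a library's values, so these counts describe the 5 libraries and are not independent tests of the treatment.

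**Figure D1:**
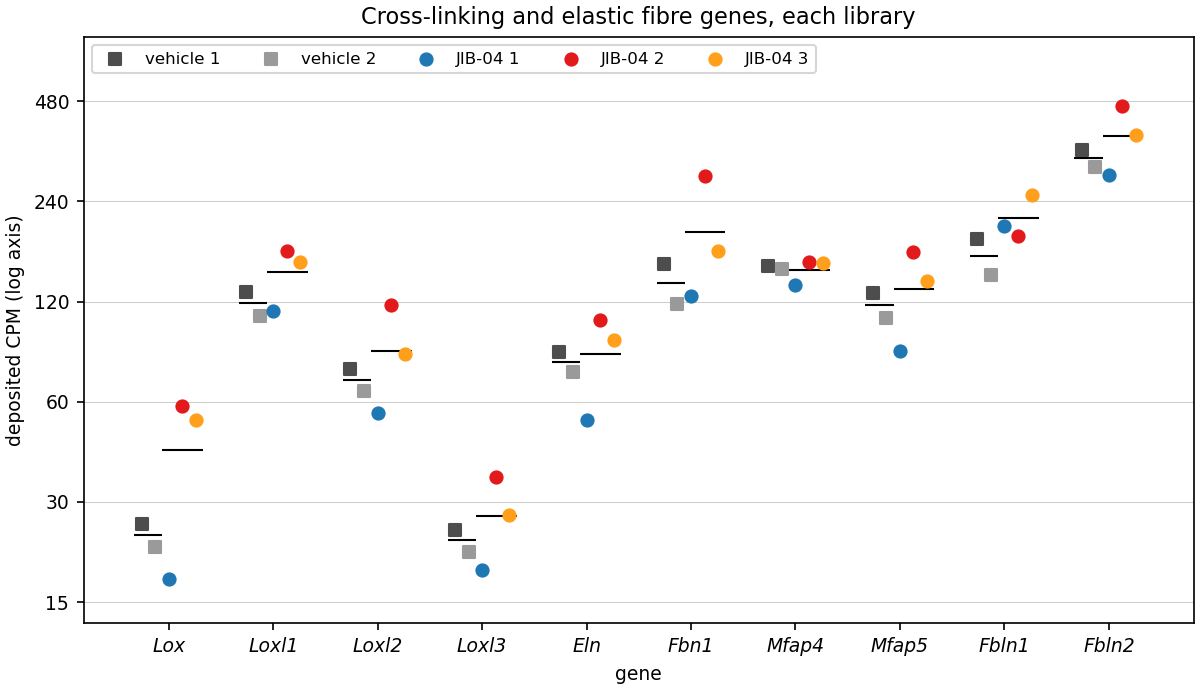
Deposited CPM (log axis) of the 10 genes in each library, with squares for the 2 vehicle and circles for the 3 JIB-04 libraries and a bar at each group mean. JIB-04 replicate 2 (red) is the highest library for 9 of the 10 genes, and JIB-04 replicate 1 (blue) lies below both vehicle libraries for 7.

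The result for the set depended on which JIB-04 library was kept. Without JIB-04 replicate 1, the 2 remaining JIB-04 libraries lay above both vehicle libraries for 10 of 10 genes, where 23.3% of all genes did, and the median log2 fold change was 0.42. In that fit limma called 1 of the 10, Lox, where it called 0.187% of all genes higher, and 9 of the 10 had an unadjusted p under 0.05 and a positive value, against 9.72% of all genes. The median shrank to 0.0070 when JIB-04 replicate 2 was left out and to 0.11 when vehicle replicate 2 was. With vehicle replicate 1 left out, all 3 JIB-04 libraries exceeded the remaining vehicle library for 3 of the 10 genes, against 22.3% of all genes.

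**Figure D2:**
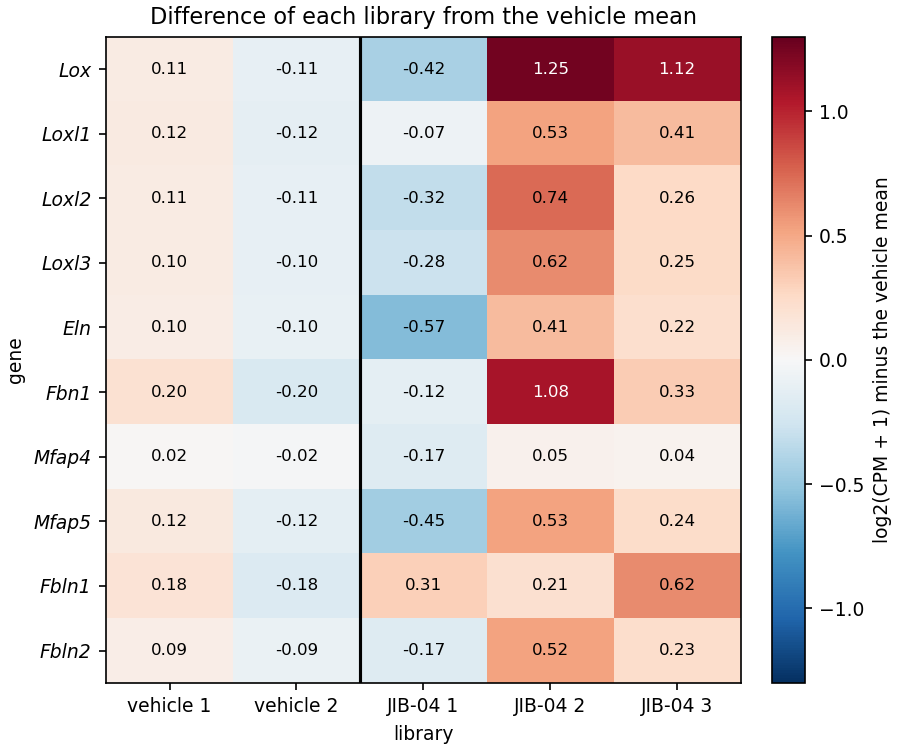
Difference of each library (columns) from the vehicle mean for the 10 genes (rows), on the log2(CPM + 1) scale. The blue cells of JIB-04 replicate 1 reach -0.57 for Eln and the red cells of replicate 2 reach 1.25 for Lox, and the JIB-04 cells of Mfap4 read -0.17, 0.05 and 0.04.

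Among the lysyl oxidases, and among all 10 genes, Lox (chromosome 18, 52516060 to 52529867 on mm10, minus strand), which encodes the founding enzyme of the family, varied most. It was at 25.7 and 22.0 CPM in vehicle replicates 1 and 2, while JIB-04 replicates 1, 2 and 3 had 17.5, 58.1 and 52.9 CPM. JIB-04 replicate 1 was therefore the lowest of all 5 libraries and the other JIB-04 libraries lay far above either vehicle value, so the groups overlapped. The means were 23.9 ± 2.6 CPM (SD, n = 2) and 42.9 ± 22.1 CPM (SD, n = 3), a ratio of 1.80. JIB-04 minus vehicle came to 0.65 (SE 0.47) with a 95% interval of -0.47 to 1.77 (limma adjusted p = 0.836). Without JIB-04 replicate 1 it was 1.19 (limma adjusted p = 0.0278, higher in 2 of 2 JIB-04 libraries), and in the other 4 fits that each left out 1 library limma's adjusted p was 0.978 or more. The log2 fold change of Lox was 0.35 without JIB-04 replicate 2 and 0.42 without replicate 3. Counting error was small beside this spread, since the lowest Lox value rested on 585 reads, with an exact Poisson 95% interval of 16.2 to 19.0 CPM.

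Loxl1 (chromosome 9, 58287723 to 58313212, minus strand) encodes the family member best known for elastic fibre upkeep. Its values were 128 and 109 CPM with vehicle, while the JIB-04 libraries gave 112, 171 and 157 CPM. JIB-04 replicate 1 fell between the vehicle libraries and the other JIB-04 libraries lay above them. On the log2 scale the difference was 0.29 (SE 0.18) with an interval of -0.13 to 0.71 (limma adjusted p = 0.821). For Loxl1 it ranged from 0.17, with either JIB-04 replicate 2 or vehicle replicate 2 left out, to 0.47 with JIB-04 replicate 1 left out.

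Loxl2 (chromosome 14, 69609476 to 69695834, plus strand) and Loxl3 (chromosome 6, 83034224 to 83052564, plus strand) encode oxidases. Both enzymes carry scavenger receptor domains beside the catalytic domain, and LOXL2 is known from fibrotic hearts. Loxl2 was at 75.0 and 64.6 CPM with vehicle, while the JIB-04 libraries gave 55.6, 117 and 83.4 CPM. Loxl3 was at 24.8 and 21.3 CPM in the vehicle pair, against 18.7, 35.7 and 27.5 CPM with JIB-04. Both had the same order of libraries, with JIB-04 replicate 1 lowest and replicate 2 highest, and their groups overlapped. The log2 fold changes were 0.23 with an SE of 0.28 for Loxl2 and 0.20 with an SE of 0.24 for Loxl3 (limma adjusted p = 0.885 and 0.887). Leaving out JIB-04 replicate 2 gave -0.032 and -0.015, so the sign of both rested on that library.

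The share of each enzyme among the 4 oxidase genes of the set was compared within a library, per length, as CPM per kilobase of exon. Loxl4, a further gene of the family, is not in this total. It was at 5.37 and 5.76 CPM in vehicle and 5.46, 7.88 and 7.81 CPM in JIB-04. Loxl1 made up 54.9% to 64.8% of the summed level of the 4 oxidase genes, Loxl2 19.1% to 23.0% and Loxl3 8.29% to 9.48%. Lox made up 8.39% and 8.41% in vehicle and 6.98%, 12.9% and 13.7% in JIB-04 replicates 1, 2 and 3. The ratio of Lox to Loxl1 was 0.139 in each vehicle library, 0.108 in JIB-04 replicate 1 and 0.235 and 0.232 in replicates 2 and 3. Lox thus differed between the JIB-04 libraries by more than Loxl1 did, and its ratio was nearly the same in the 2 vehicle libraries although the CPM of both genes differed there. The ratio of Lox to Eln was 0.245 and 0.241 in vehicle and 0.267, 0.444 and 0.464 in JIB-04, where the groups did not overlap. Nor did they for Loxl1 to Eln, at 1.77 and 1.73 in vehicle and 2.48, 1.89 and 2.00 in JIB-04, or for Fbn1 to Eln, at 0.588 and 0.515 in vehicle and 0.753, 0.873 and 0.595 in JIB-04. Eln was thus lower against Lox, Loxl1 and Fbn1 in each JIB-04 library than in vehicle, though by little against Fbn1 in replicate 3. These ratios share Eln, so they are not separate observations. Ratios of Eln to the other members were not taken, and the pattern did not hold for all of them. Per length, Mfap4 was at 85.6 and 83.8 in vehicle and 75.2, 87.8 and 87.2 in JIB-04. Eln was at 22.0 and 19.1 in vehicle and 13.8, 27.4 and 23.9 in JIB-04. Against Mfap4, Eln was therefore higher in JIB-04 replicates 2 and 3 than in vehicle. The groups overlapped for the other ratios taken, Lox to Loxl1, Loxl2 and Loxl3, Fbn1 and Mfap5 to Mfap4, and Fbln1 to Fbln2. No share over other gene pairs was taken. These ratios were picked after the values were seen and carry no test.

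Eln (chromosome 5, 134702596 to 134747254, minus strand) encodes tropoelastin, the soluble precursor that lysyl oxidases cross-link into elastin. It was at 84.8 and 73.8 CPM in vehicle hearts, and the JIB-04 hearts had 53.0, 106 and 92.0 CPM. The vehicle libraries lay in the middle of the JIB-04 range. The fitted log2 fold change stood at 0.020 (SE 0.27) with an interval of -0.62 to 0.66 (limma adjusted p = 0.991), and turned to -0.18 without JIB-04 replicate 2, -0.079 without vehicle replicate 2 and -0.078 without JIB-04 replicate 3, against 0.31 without JIB-04 replicate 1.

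Fbn1 (chromosome 2, 125300594 to 125506438, minus strand) encodes fibrillin-1, the backbone of microfibrils and the gene mutated in Marfan syndrome. It was at 155 and 118 CPM with vehicle, while the JIB-04 libraries gave 124, 287 and 171 CPM. JIB-04 replicate 2 stood well above the other 4 libraries, while replicate 1 lay inside the vehicle range. JIB-04 minus vehicle came to 0.43 (SE 0.32, limma adjusted p = 0.840). Omitting JIB-04 replicate 2 gave 0.10, omitting replicate 1 gave 0.70 and omitting vehicle replicate 2 gave 0.23.

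Mfap4 and Mfap5 encode glycoproteins that bind microfibrils. Mfap4 (chromosome 11, 61485444 to 61488704, plus strand) was at 154 and 150 CPM in the vehicle pair, against 135, 157 and 156 CPM with JIB-04. It was the steadiest of the 10 genes, with a highest library 1.17 times the lowest, against 3.31 times for Lox and 2.42 times for Fbn1. Its log2 fold change was -0.026 (SE 0.083), the narrowest interval of the set at -0.22 to 0.17 (limma adjusted p = 0.958). The value turned to 0.046 without JIB-04 replicate 1 and to 0.026 when the recovered totals replaced the authors' scaling.

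Mfap5 (chromosome 6, 122513676 to 122529287, plus strand) was at 127 and 107 CPM in vehicle hearts, and the JIB-04 hearts had 85.2, 169 and 138 CPM. It followed the order of Eln and Loxl2, with JIB-04 replicate 1 lowest and replicate 2 highest. On the log2 scale the difference was 0.11 (SE 0.26, limma adjusted p = 0.945), and turned to -0.10 without JIB-04 replicate 2 and to -0.016 when vehicle replicate 2 was left out. Per length, the ratio of Mfap5 to Mfap4 was 0.986 and 0.849 in vehicle and 0.752, 1.28 and 1.05 in JIB-04, so the pair did not keep a fixed proportion.

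Fbln1 (chromosome 15, 85206008 to 85286294, plus strand) encodes fibulin-1, a calcium-binding glycoprotein of elastic fibres, basement membranes and fibronectin matrix. It was at 185 and 145 CPM with vehicle, while the JIB-04 libraries gave 203, 189 and 251 CPM. It was the member whose groups did not overlap, though JIB-04 replicate 2 exceeded vehicle replicate 1 by little. The means were 165 ± 28 CPM (SD, n = 2) and 214 ± 33 CPM (SD, n = 3), and the log2 fold change was 0.38 (SE 0.15) with an interval of 0.022 to 0.73. Its unadjusted p was under 0.05, and it did not pass over all genes (limma adjusted p = 0.751, higher in 3 of 3 JIB-04 libraries). The value stayed positive in each fit that left out 1 library, at 0.41 and 0.46 without JIB-04 replicates 1 and 2, 0.26 without replicate 3, 0.55 without vehicle replicate 1 and 0.20 without vehicle replicate 2. Unlike the other genes of the set, it was higher in JIB-04 replicate 1 than in either vehicle library.

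The promoter table held entries for 3 of the 10 genes: Fbln1, Fbln2 and Fbn1. Fbln1, the member whose groups did not overlap, had 2 start sites there, at 85205949 and 85206008. Of the 4 windows for these genes, 3 overlap annotated exons and are not printed. The one shown is the 250 bases before the first of the Fbln1 start sites (RefSeq, GRCm38.p6, chr15:85205699-85205948, plus strand), with a match to the SMAD-binding letters CAGACA in capitals, whichever strand carries them:

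Fbln1: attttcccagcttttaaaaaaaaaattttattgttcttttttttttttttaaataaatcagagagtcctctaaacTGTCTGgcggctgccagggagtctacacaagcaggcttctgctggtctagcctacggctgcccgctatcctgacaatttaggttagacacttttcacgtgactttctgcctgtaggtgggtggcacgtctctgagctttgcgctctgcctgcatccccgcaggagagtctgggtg

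The match begins at position -175 from the start site and reads TGTCTG on the strand shown. Of 32851 promoter windows of the same length, 17.1% held CAGACA or its reverse complement. The TATA box letters (TATAAA), the CCAAT box (CCAAT), the GC box (GGGCGG), the AP-1 letters (TGANTCA) and the TEAD letters (CATTCC) were also searched on both strands and did not occur in this window, and they occurred in 12.4%, 33.8%, 32.7%, 6.75% and 12.6% of all windows. The window was 46.4% G and C, against a median of 52.4% over all. The overlapping window before the second Fbln1 start site, which is the gene start of the files, held the same CAGACA match, at position -234 from that site, and a GC box at -11, and was 62.4% G and C. A GC box also occurred in the windows of Fbln2 and Fbn1, and CAGACA did not. A match of letters does not show binding.

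Fbln2 (chromosome 6, 91212764 to 91272540, plus strand) encodes fibulin-2, which binds fibrillin and fibronectin and is known from heart valves and the remodelled heart. It was at 344 and 304 CPM in the vehicle pair, against 287, 465 and 379 CPM with JIB-04. JIB-04 replicate 1 was the lowest library and the other JIB-04 libraries were the highest. The fitted log2 fold change stood at 0.19 (SE 0.19, limma adjusted p = 0.872), and at 0.029 with JIB-04 replicate 2 left out, 0.11 with vehicle replicate 2 left out and 0.37 with JIB-04 replicate 1 left out. Per length, the ratio of Fbln1 to Fbln2 was 0.628 and 0.555 in vehicle and 0.823, 0.475 and 0.774 in JIB-04, in the order of the replicates.

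**Figure D3:**
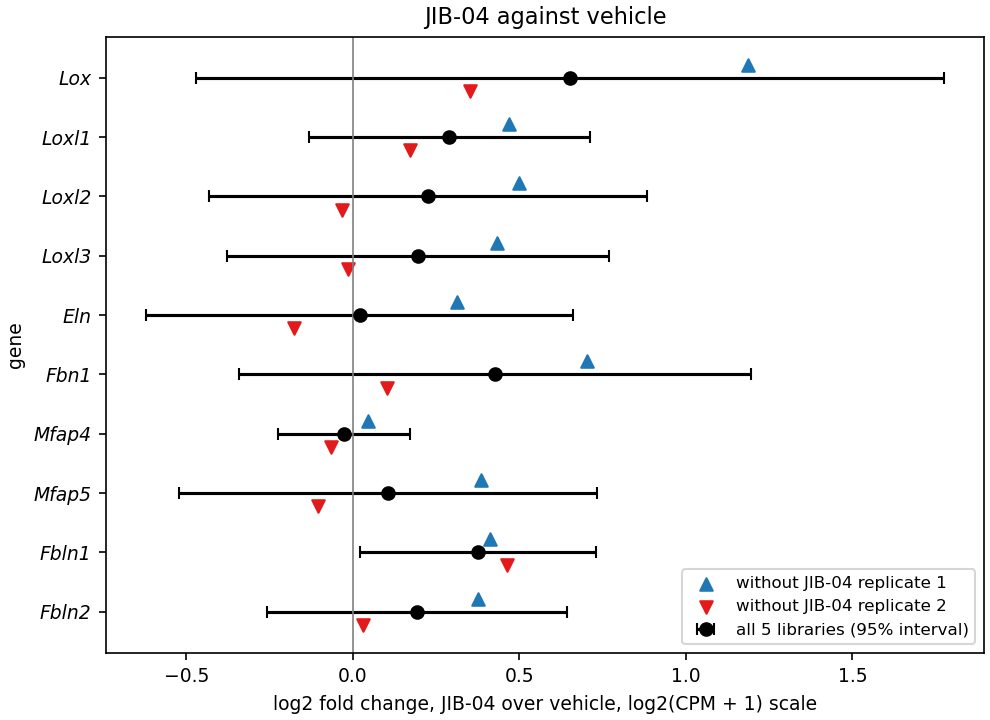
Log2 fold change of JIB-04 over vehicle for each gene on the log2(CPM + 1) scale (circles, with 95% intervals from limma), and the same without JIB-04 replicate 1 (upward triangles) or without JIB-04 replicate 2 (downward triangles). The interval lies above 0 for Fbln1, at 0.022 to 0.73, and includes 0 for the other 9 genes, and the triangles lie on opposite sides of 0 for Loxl2, Loxl3, Eln, Mfap4 and Mfap5.

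Levels were put on a common scale as CPM per kilobase of merged exons, with the caution that the exon model is GENCODE's and may not be the one that was counted. Mfap4 averaged 83.9, Mfap5 83.2 and Fbln2 74.4 over the 5 libraries, followed by Fbln1 at 47.4 and Loxl1 at 41.1. Eln averaged 21.2, Loxl2 14.6 and Fbn1 14.3, and Lox and Loxl3 were lowest at 7.38 and 6.25. Some neighbours in this order did not differ beyond their spread. Mfap4 exceeded Mfap5 in 3 of 5 libraries, Loxl2 exceeded Fbn1 in 3 and Lox exceeded Loxl3 in 2. Mfap5 exceeded Fbln2, and Fbln1 exceeded Loxl1, in 4 of 5 libraries. The steps from Fbln2 to Fbln1, Loxl1 to Eln, Eln to Loxl2 and Fbn1 to Lox held in 5 of 5 libraries.

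Other genes of the pathway were read from 5 lists, and none of their members passed limma over all genes. Of 21 further genes listed for elastic fibre assembly, 9 log2 fold changes were positive and 12 negative, with a median of -0.11. A role in elastic fibres was not checked for each listed gene, Mfap1a, Mfap1b and Mfap3 included. Every JIB-04 library exceeded both vehicle values for 2 of the 21 (Emilin1 and Mfap3), against 10.7% of all genes, and was below both for 4 (Adamtsl2, Adamtsl4, Mfap1a and Mfap1b), against 12%. All genes named from the pathway lists were chosen on their values in these libraries. Emilin1, which encodes an elastin interface protein, was at 56.3 and 49.3 CPM in vehicle hearts, and the JIB-04 hearts had 57.0, 102 and 72.8 CPM. The log2 fold change of Emilin1 was 0.50 (SE 0.22, limma adjusted p = 0.793), and 0.29 without JIB-04 replicate 2. Adamtsl4, a microfibril-associated ADAMTS-like protein, was at 74.6 and 75.7 CPM with vehicle, while the JIB-04 libraries gave 65.3, 57.2 and 70.4 CPM. For Adamtsl4 the log2 fold change was -0.23 (SE 0.093, limma adjusted p = 0.767). Thus the 21 listed genes were centred slightly below 0 while 9 of the 10 members were above it. This difference between lists was not tested.

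Partners of lysyl oxidase and collagen cross-linking enzymes had 11 positive and 6 negative values of 17, with a median of 0.063. The groups did not overlap for Fmod and Lepre1, higher with JIB-04 (2 of 17, against 10.7% of all genes), and for Tnxb, lower (1 of 17, against 12%). Fmod, a proteoglycan that guides collagen cross-linking, was at 9.11 and 9.77 CPM in the vehicle pair, against 11.8, 23.2 and 12.6 CPM with JIB-04. Lepre1, a collagen prolyl hydroxylase, was at 24.1 and 21.5 CPM in vehicle hearts, and the JIB-04 hearts had 24.4, 29.8 and 25.4 CPM. Their log2 fold changes were 0.63 and 0.21 (limma adjusted p = 0.789 and 0.821), and 0.34 and 0.12 without JIB-04 replicate 2. Fn1, the gene of fibronectin, was singled out after its values were seen. It was the 1 of 17 that limma called without JIB-04 replicate 1, where 0.187% of all genes were called higher. It was at 136 and 127 CPM with vehicle, while the JIB-04 libraries gave 107, 258 and 253 CPM, the same order of libraries as Lox. The log2 fold change of Fn1 was 0.53 over all libraries and 0.95 without JIB-04 replicate 1 (limma adjusted p = 0.0278), but 0.32 without replicate 2 and 0.33 without replicate 3.

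The fibrillar collagens are the other substrate of the oxidases, and all 7 tested had positive values, with a median of 0.36 and with JIB-04 replicate 2 highest for 7 of 7. Their groups overlapped for each of the 7. Col3a1 was at 617 and 447 CPM in the vehicle pair, against 575, 962 and 887 CPM with JIB-04. Col1a1 was at 311 and 245 CPM in vehicle hearts, and the JIB-04 hearts had 285, 460 and 378 CPM. The collagen median came to 0.075 without JIB-04 replicate 2 and to 0.56 without replicate 1. Limma's adjusted p was 0.767 for Col3a1, at a log2 fold change of 0.59, and 0.816 for Col1a1, at 0.41.

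Proteases that degrade elastin had 5 positive values of 7 tested, with a median of 0.19, and the groups did not overlap for 3 of the 7 (Ctss, Mmp14 and Ctsk, all higher with JIB-04), against 10.7% of all genes. Ctss, the gene of cathepsin S, a cysteine protease that cleaves elastin, was at 21.0 and 15.4 CPM with vehicle, while the JIB-04 libraries gave 29.2, 35.0 and 65.7 CPM. Its log2 fold change was 1.13 (SE 0.32, limma adjusted p = 0.646). Mmp14, a membrane metalloproteinase, was at 19.2 and 16.8 CPM in the vehicle pair, against 19.4, 33.2 and 29.0 CPM with JIB-04. Its log2 fold change was 0.54 (SE 0.21, limma adjusted p = 0.750). Genes of the TGF-beta list are ligands, responsive genes and, beside these, Hif1a, and they include known inducers of Lox. They had 6 positive values of 9 and a median of 0.11. Groups that did not overlap were seen for 0 of the 9, against 10.7% of all genes higher and 12% lower. Tgfb2 was at 178 and 153 CPM in vehicle hearts, and the JIB-04 hearts had 158, 222 and 218 CPM. Hif1a, an oxygen-regulated factor known to act on Lox, was at 124 and 133 CPM with vehicle, while the JIB-04 libraries gave 141, 151 and 132 CPM.

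**Figure D4:**
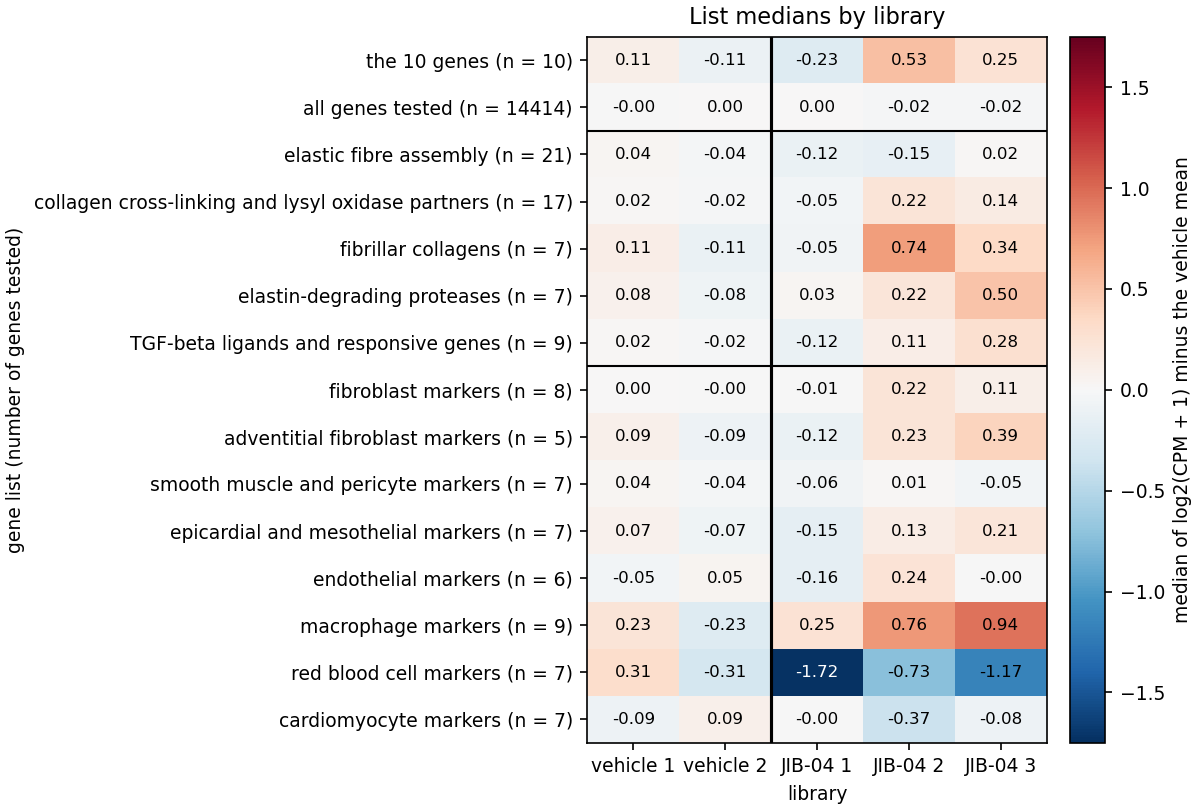
Median difference from the vehicle mean, on the log2(CPM + 1) scale, of the 10 genes, all genes tested, 5 pathway lists and 8 marker lists (rows) in each library (columns). The row of the 10 genes runs -0.23, 0.53 and 0.25 in JIB-04 replicates 1, 2 and 3, the fibrillar collagens -0.055, 0.74 and 0.34, and the smooth muscle markers -0.064, 0.014 and -0.045.

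Markers of the cell types in the heart were read beside these values. For fibroblast markers the medians were -0.0089, 0.22 and 0.11 in JIB-04 replicates 1, 2 and 3, with 2925 and 2962 CPM summed over 8 genes in vehicle and 2859 to 3238 CPM in JIB-04. Adventitial fibroblast markers were at -0.12, 0.23 and 0.39, with 249 and 294 CPM summed in vehicle and 264 to 374 CPM in JIB-04. Smooth muscle and pericyte markers were at -0.064, 0.014 and -0.045, with 428 and 444 CPM summed in vehicle and 404 to 451 CPM in JIB-04. Both fibroblast lists had the lowest JIB-04 median in replicate 1, as the 10 genes did. So did the smooth muscle, endothelial, epicardial, macrophage and red blood cell lists, so this was not particular to fibroblasts. Among the JIB-04 libraries the fibroblast median was highest in replicate 2, like that of the 10 genes. The smooth muscle, endothelial and red blood cell medians were also highest there. The adventitial median was highest in replicate 3, and the smooth muscle medians stayed near 0. The log2 fold changes of the most abundant fibroblast and adventitial markers were 0.17 for Vim, 0.21 for Pi16 and 0.35 for Ly6a. That of Gsn rounded to 0.00. For smooth muscle and pericyte markers they were 0.15 for Cspg4 and -0.11 for Smtn. Over the whole lists, 7 of 8 fibroblast, 3 of 5 adventitial and 2 of 7 smooth muscle values were positive.

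Macrophage markers were at 0.25, 0.76 and 0.94 in JIB-04 replicates 1, 2 and 3, with 9 of 9 log2 fold changes positive. In limma 7 of them had an unadjusted p under 0.05 (against 3.93% of all genes), and 0 passed after adjustment. DESeq2 called Emr1 and Fcgr1 higher (DESeq2 adjusted p = 0.0110 and 0.0413), where it called 0.481% of all genes higher. The markers summed to 239 and 338 CPM in vehicle against 333 to 526 CPM in JIB-04. Red blood cell markers were at -1.72, -0.73 and -1.17, with 3253 and 4989 CPM summed in vehicle and 1190 to 2395 CPM in JIB-04. Cardiomyocyte markers were at -0.0011, -0.37 and -0.083, lowest in the library where the matrix genes were highest. Endothelial markers were at -0.16, 0.24 and -0.0032, with 741 and 785 CPM summed in vehicle and 689 to 894 CPM in JIB-04. Epicardial and mesothelial markers were at -0.15, 0.13 and 0.21, with 23.9 and 24.5 CPM summed in vehicle and 23.1 to 29.1 CPM in JIB-04. Among the most abundant genes of these lists, the log2 fold changes were 0.65 for C1qc, 0.50 for Lyz2, -1.23 for Hbb-b1 and -1.22 for Hba-a1. They were -0.24 for Myh6, -0.052 for Actc1, 0.093 for Kdr, 0.082 for Vwf, 0.15 for Tbx18 and 0.079 for Wt1. Over the whole lists, 3 of 6 endothelial and 4 of 7 epicardial values were positive. Of the red blood cell and cardiomyocyte values, 0 of 7 were positive in each list. Adipocyte markers, a sign of attached fat, had 4 genes in the files and none passed the filter, with 0 to 0.456 CPM summed in any library. The part of any of these cell types in the values of the 10 genes was not tested.

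The genes most like the mean profile of the 10 were found by the root mean square distance of centred log2(CPM + 1) values over the 5 libraries, among 12244 named genes with a mean of at least 1 CPM. The 5 nearest were S100a11, Nppb, Ada, Nucb2 and Col5a1, at distances of 0.020 to 0.043. S100a11 was at 51.0 and 44.3 CPM in the vehicle pair, against 40.7, 73.4 and 63.8 CPM with JIB-04. Nppb, the gene of the natriuretic peptide BNP and a marker of myocardial strain, was at 1002 and 857 CPM in vehicle hearts, and the JIB-04 hearts had 774, 1457 and 1174 CPM. Ada had 0.600 to 1.88 CPM, Nucb2 7.77 to 13.4 CPM and Col5a1 99.3 to 166 CPM, each lowest in JIB-04 replicate 1 and highest in replicate 2. Within the set, Loxl3 lay nearest to the mean profile at 0.052, and Lox and Fbln1 lay farthest at 0.38 and 0.31. With 5 libraries such likeness is a description only.

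Reads could be shared with overlapping genes for part of the set. Exons of 5 of the 10 genes (Lox, Loxl2, Loxl3, Eln and Fbn1) overlap exons of another annotated gene, mostly on the opposite strand, such as Htra2 beside Loxl3. The kit marks strand, but the strand setting of the count is not given in the sources used here, so reads of such pairs may not be separated. The other 5 genes have no overlapping exon in the annotation.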

How the data were processed

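Per the labels' protocols, Trizol was used to extract the RNA and a stranded kit for mRNA to build libraries. The submitters' processing notes list, without roles, the build mm10, edgeR, Subread, featureCounts, Picard 1.127, TopHat2 2.0.12 and FastQC 0.11.2. The authors deposited 1 table per library with a column headed CPM, which holds a normalised signal rather than plain CPM, since the columns summed to 954981 to 1046902. Every value was within 0.01 of a whole multiple of 1 read, so whole reads were recovered (100% of values), with 1 blank row left out. Starts in the files count from 0 and were raised by 1.

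Genes with low reads were removed with filterByExpr (at least 10 reads, 15 in total), leaving 14414. The main test was limma 3.58.1 (run under R 4.3.3) on log2(CPM + 1), letting the prior variance follow the mean, with p-values adjusted by Benjamini-Hochberg over the 14414 genes and 3 residual degrees of freedom. edgeR 4.0.16, limma-voom and DESeq2 1.42.0 on the recovered reads, another pseudocount, other scalings and filters, a replicate block and each library left out were alternatives. Code was tested on simulated data. In DESeq2, 14134 genes had an adjusted p.

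The 10 genes and all lists were chosen with earlier results of these data known. Named genes were all 10, the 2 with the smallest limma p from each pathway list (so chosen on their values), the 2 most abundant of each marker list that passed the filter, and the 5 nearest profiles. Fn1, Mfap3, Adamtsl2, Mfap1a, Mfap1b, Tnxb, Ctsk, Emr1, Fcgr1 and Hba-a2 fell outside this rule and were named after their values were seen. Exon lengths and overlaps came from GENCODE M21 and the promoter from RefSeq. Intervals on reads cover counting error only.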

Additional observations from a re-analysis of the deposited data

How the results depend on the processing

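Across 14 alternatives the 10 genes gave 140 log2 fold changes, of which 120 were positive, 10 had a sign other than in the fit of all libraries, and 1 (Lox without JIB-04 replicate 1) passed the threshold. DESeq2 called 68 genes higher and 16 lower, where limma called 0 and 0. Leaving out 1 library at a time gave 0 to 27 genes higher, 0 to 2 lower and 0 to 1 of the 10 genes higher, the upper ends all without JIB-04 replicate 1. In the same fits (chosen for this count after seeing the data), 1 to 10 of the 10 genes had every JIB-04 library above every vehicle library, with 3 without vehicle replicate 1 (22.3% of all genes did so) and 10 without JIB-04 replicate 1 (23.3%), against 1 with all libraries (10.7%). Over these fits the log2 fold changes ran from -0.032 to 0.50 for Loxl2, -0.015 to 0.43 for Loxl3, -0.18 to 0.31 for Eln, -0.064 to 0.046 for Mfap4 and -0.10 to 0.38 for Mfap5. Mfap4 was at 0.026 with plain CPM of the recovered totals. The cause of these changes was not tested. The titles number the replicates. Deviations of same-numbered libraries from their group means had correlations over genes of -0.133 and -0.135 for the 2 pairs. The deviations of the 2 vehicle libraries mirror each other, so these values are not separate evidence and cannot settle whether libraries were paired. With the replicate block, limma called 0 genes, the median of the 10 was 0.19 and Eln was at -0.078. Precision is limited by 2 vehicle libraries and 3 residual degrees of freedom. Depth gives the lowest value of the 10 genes, Lox at 17.5 CPM, a counting interval of 16.2 to 19.0 CPM.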
